A study of Mus musculus with 36 samples.

Results

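A set of 9 regulators of the dorsal telencephalon and the cortical hem were followed through the islands of 3 histone marks in the mouse hippocampus, namely Emx1, Emx2, Lhx2, Lhx5, Lhx9, Lmx1a, Otx1, Otx2 and Dmrta2. These 9 genes were taken by name from 21938 protein-coding genes for what they are known to do. At each gene, the share of the promoter (2 kb to either side of the gene start) and of the gene body that lay inside islands was measured, together with the width of the widest island over the promoter and its read count per kb. The study asked what becomes of Polycomb marks in hippocampal cells when the histone demethylase and Polycomb partner KDM2B loses its DNA-binding CxxC zinc finger. ChIP-seq for H2AK119ub1, H3K27me3 and H3K36me2 was made from hippocampus tissue of newborn (P0) mice and from neurospheres, that is, neural progenitors enriched from P0 hippocampi and grown in suspension with FGF2 and EGF. In each source, 2 control libraries (Ctrl, Kdm2b fl/+ or Kdm2b fl/fl) and 2 conditional knockout libraries (cKO, Kdm2bEmx1-delta-CxxC) of each mark gave 24 island sets.

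The cKO deletes the part of Kdm2b that encodes the CxxC zinc finger through Emx1-Cre, which is active in the progenitors of the dorsal telencephalon and their descendants. Cells of other origin in the tissue keep the intact gene. Emx1-Cre mice carry Cre at the Emx1 gene itself, so one of the 9 genes bears the driver in the cKO. In bulk tissue, a mark present in fewer cells and a weaker mark in each cell cannot be told apart. Whether libraries of the same group came from separate animals or cultures is not given in the labels, so every p-value below measures the spread between these libraries alone.

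Dorsal telencephalic identity is held by a small network of transcription factors. LHX2 is a selector of cortical fate that keeps hem fate in check, EMX2 and DMRTA2 act in the growth and medial patterning of the cortex and hippocampus, and EMX1 marks the dorsal progenitors. The cortical hem, the Wnt and BMP source beside the hippocampal primordium, expresses Lmx1a, while Lhx5 and Lhx9 mark medial and caudal parts of the forebrain, among them the Cajal-Retzius cell sources and the thalamus. OTX1 and OTX2 pattern the forebrain and midbrain, and OTX2 persists in the choroid plexus. Polycomb complexes silence developmental genes of this kind. Polycomb repressive complex 1, which a KDM2B-containing variant brings to CpG islands, places H2AK119ub1, Polycomb repressive complex 2 places H3K27me3, and H3K36me2 is the mark that KDM2B can demethylate.

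In mm10 coordinates, Emx1 lies on chromosome 6 from 85187438 to 85204462 on the plus strand and Emx2 on chromosome 19 from 59458372 to 59465357 on the plus strand. The LIM homeobox gene Lhx2 spans chromosome 2 from 38339281 to 38369733 (plus strand), Lhx5 spans chromosome 5 from 120431699 to 120441223 (plus strand), and Lhx9 spans chromosome 1 from 138825186 to 138848577 (minus strand). Lmx1a covers 159.5 kb of chromosome 1, from 167689237 to 167848741 on the plus strand, and is by far the longest of the 9. Otx1 is found on chromosome 11 from 21994764 to 22002897 (minus strand), Otx2 on chromosome 14 from 48657677 to 48673819 (minus strand) and Dmrta2 on chromosome 4 from 109978053 to 109983687 (plus strand). For Lhx2, Otx2 and Lhx9, the transcript with the longest coding sequence starts 11.48, 6.306 and 6.148 kb away from the outermost start that was used here. For Otx1 that distance was 1.282 kb, for Lmx1a 0.32 kb, and for the other 4 genes both starts were the same.

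The 9 promoters were rich in CpG, the dinucleotide that the CxxC zinc finger binds when it is unmethylated. The windows of 4 kb held between 116 CG dinucleotides at Otx2 and 225 at Otx1, against a median of 86 over all protein-coding promoters. Otx1, Emx2, Dmrta2, Emx1 and Lmx1a ranked highest, at percentiles 97.52, 96.34, 96.04, 94.65 and 93.43, and Lhx5, Lhx2, Lhx9 and Otx2 followed at 82.8, 75.83, 69.97 and 68.91. RefSeq (GRCm38.p6, the assembly of mm10) has a promoter entry for 7 of the 9, all but Lhx5 and Otx1. The 250 bases before the RefSeq start follow for 4 of them, 2 with H3K27me3 in every library (Lmx1a, Otx2) and 2 with it in 4 libraries or fewer (Lhx2, Dmrta2), with each CG in capitals. The Lmx1a stretch (chr1:167689307-167689556, plus strand) and the Otx2 stretch (chr14:48667646-48667895, minus strand) lie inside introns of their genes, since RefSeq starts these transcripts downstream of the outermost start. The Lhx2 stretch (chr2:38339030-38339279, plus strand) and the Dmrta2 stretch (chr4:109977774-109978023, plus strand) lie before the gene.
Lmx1a: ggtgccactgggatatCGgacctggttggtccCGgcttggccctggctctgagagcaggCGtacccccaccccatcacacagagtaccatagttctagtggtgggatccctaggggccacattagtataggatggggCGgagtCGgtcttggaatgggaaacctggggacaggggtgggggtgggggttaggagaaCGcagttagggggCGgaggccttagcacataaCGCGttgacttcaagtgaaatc
Otx2: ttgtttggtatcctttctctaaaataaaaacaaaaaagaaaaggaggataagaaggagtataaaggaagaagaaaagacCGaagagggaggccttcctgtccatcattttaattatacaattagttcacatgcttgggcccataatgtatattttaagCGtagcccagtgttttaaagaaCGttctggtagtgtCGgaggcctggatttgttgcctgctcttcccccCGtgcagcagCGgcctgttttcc
Lhx2: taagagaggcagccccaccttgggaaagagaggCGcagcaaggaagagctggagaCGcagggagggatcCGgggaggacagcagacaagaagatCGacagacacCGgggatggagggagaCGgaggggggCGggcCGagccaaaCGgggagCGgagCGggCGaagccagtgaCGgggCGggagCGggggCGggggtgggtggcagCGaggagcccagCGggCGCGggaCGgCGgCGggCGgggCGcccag
Dmrta2: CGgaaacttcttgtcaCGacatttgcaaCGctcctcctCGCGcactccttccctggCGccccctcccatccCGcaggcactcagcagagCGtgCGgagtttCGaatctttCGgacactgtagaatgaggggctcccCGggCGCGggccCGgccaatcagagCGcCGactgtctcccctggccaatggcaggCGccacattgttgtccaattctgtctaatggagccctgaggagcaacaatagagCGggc

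The letters CG, which read the same on both strands, occurred 9 times in the Lmx1a stretch, 6 times at Otx2, 25 times at Lhx2 and 19 times at Dmrta2. Of 32851 RefSeq promoter entries, 92.13% held at least 1 CG in the same 250 bases, 40.33% held as many as Lmx1a, 50.35% as many as Otx2, 10.67% as many as Lhx2 and 19.73% as many as Dmrta2. The corresponding stretches of Emx1, Emx2 and Lhx9 held 30, 24 and 4. So in these short windows the 2 genes with H3K27me3 throughout had fewer CG than the 2 without it in some libraries, which describes 4 sequences and no more. The Otx2 stretch lies outside the 4 kb promoter window (48671819 to 48675818) in which its islands were measured. In the 4 kb windows the order was mixed, with 187 CG at Lmx1a and 116 at Otx2 against 129 at Lhx2 and 207 at Dmrta2.

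Depth differed between libraries, and with it the share of all promoters that carried an island. Reads inside islands numbered from 987329 to 6799122 for hippocampus H2AK119ub1, from 1681001 to 5525016 for hippocampus H3K27me3 and from 3109819 to 4504325 for hippocampus H3K36me2. The neurosphere libraries held more, from 5025115 to 17734396 for H2AK119ub1, from 13195590 to 17025504 for H3K27me3 and from 10587042 to 22021439 for H3K36me2. Islands touched from 3.938% to 24.33% of promoters in the hippocampus H2AK119ub1 libraries, and hippocampus H3K27me3 cKO 2 stood above its group with 25.79% against 12.32% to 17.79%. As a check of the labelled cell type, H3K27me3 was absent from the promoters of the progenitor genes Sox2, Vim and Fabp7 in all 8 libraries and present at 5 or 6 of 6 non-neural regulators, of which only Hnf4a was at 0, in hippocampus Ctrl 2.

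The 9 promoters fell into 3 patterns of H3K27me3. Lhx5, Lmx1a and Otx2 carried it in all 8 libraries. Emx1 and Lhx9 carried it in all 4 neurosphere libraries but in only 1 and 2 of 4 hippocampus libraries, and Emx2, Lhx2, Otx1 and Dmrta2 had islands in 1 to 4 libraries of 8. H2AK119ub1 was found at every one of the 9 in at least 3 libraries, and H3K36me2 was found at no member promoter in hippocampus tissue.

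**Figure D1:**
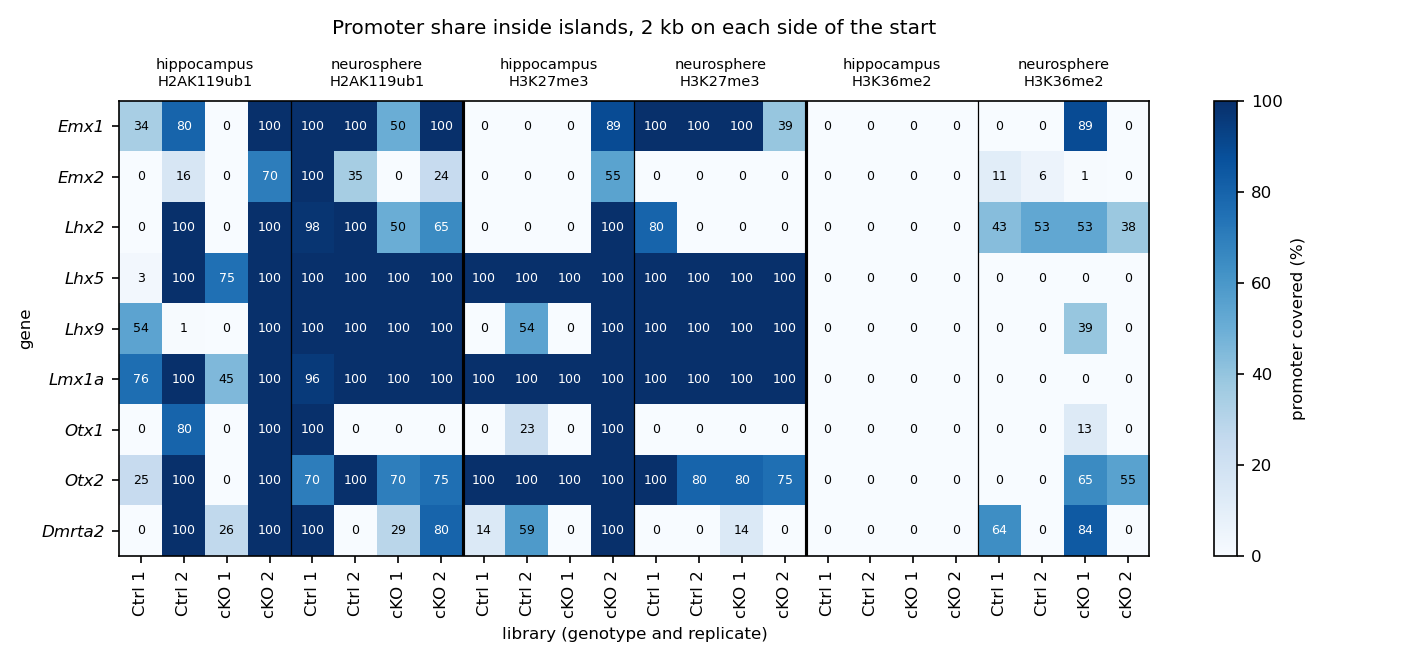
Heat map of the share of each promoter (2 kb on each side of the start, 4 kb in all) inside islands, in percent, with the 9 genes as rows and the 24 libraries as columns, grouped by mark and source. Lhx5, Lmx1a and Otx2 are dark across all 8 H3K27me3 columns, the hippocampus H3K36me2 columns are at 0, and hippocampus cKO 2 is dark for nearly every gene in both Polycomb marks.

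Lhx5 and Lmx1a were covered by H3K27me3 over 100% of the promoter in all 8 libraries. Otx2 was covered over 100% in the 4 hippocampus libraries, and in neurospheres over 100% and 80% in the Ctrl and 80% and 75.45% in the cKO libraries. H3K36me2 was at 0 in all 8 libraries for Lhx5 and Lmx1a. In an exact permutation test of the 8 H3K27me3 against the 8 H3K36me2 libraries (two-sided, Benjamini-Hochberg adjusted over 16152 promoters), H3K27me3 coverage was higher at Lhx5 (100% against 0%, adjusted p = 0.002409), at Lmx1a (100% against 0%, adjusted p = 0.002409) and at Otx2 (91.93 ± 11.22% against 15.06 ± 28%, SD, n = 8 each, adjusted p = 0.002409). The unadjusted p of 0.0001554 behind these 3 is the smallest that 8 against 8 libraries can give. By the study's methods, one lysate was split between the 3 antibodies, so libraries of different marks may share chromatin, and this test takes them as independent. In hippocampus, however, the labels list separate inputs for H3K36me2, so that mark may come from another preparation there. A difference between these marks in hippocampus cannot be told apart from one between preparations. With libraries paired by source, genotype and number (chosen after seeing the data), H3K27me3 was higher in 8 of 8 pairs at Lhx5, Lmx1a and Otx2 and in 6 of 8 at Lhx9, with 0 lower. The exact permutation p was 0.007812 for the first 3, the smallest that 8 pairs allow, and 0.03125 for Lhx9, and after adjustment they stood at 0.1105 and 0.1905. In the paired test 0% of the 16152 promoters passed, with 2682 at an unadjusted p under 0.05. In the unpaired test, which took sources and genotypes together, Lhx9 passed as well, with 69.3 ± 45.57% against 4.925 ± 13.93% (exact permutation test, n = 8 each, adjusted p = 0.04641). The Lhx9 call was lost when any one of 13 of the 16 libraries was left out, all but neurosphere H3K36me2 cKO 1 and hippocampus H3K27me3 Ctrl 1 and cKO 1, and the difference then ranged from 59.99 points up. With 4 of 9 members higher and none lower, these counts stand beside 13.3% of all tested promoters higher and 1.78% lower, and the median difference over the members was 42.38 points. The same test against H2AK119ub1 called none of the 9, beside 0.308% of 14303 promoters higher in H3K27me3. There the member median was -16.99 points, H2AK119ub1 being the more extensive mark at Emx1, Emx2, Lhx2, Otx1 and Dmrta2.

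Lhx5 had broad H3K27me3 islands in both sources. The widest island over its promoter measured 36.8 and 24.4 kb in hippocampus Ctrl, 33 and 40.2 kb in hippocampus cKO, 79 and 72 kb in neurosphere Ctrl and 56.4 and 71 kb in neurosphere cKO. The neurosphere islands were thus all wider than the hippocampus islands and reached far beyond the gene, which is 9.525 kb long, on both sides, covering the start of the antisense transcript Gm27199 in every library. The means were 33.6 ± 6.802 kb in hippocampus and 69.6 ± 9.492 kb in neurospheres (SD, n = 4 each, exact permutation p = 0.02857, the smallest that 4 against 4 libraries can give). Counts per kb in that island were 55.69 ± 9.133 and 107.3 ± 25.66 (exact permutation p = 0.02857, n = 4 each). Neurosphere libraries were denser in general, and divided by the mean density of all islands of the same library the Lhx5 island stood at 1.586 ± 0.3509 and 2.153 ± 0.1757 times that mean (exact permutation p = 0.05714, n = 4 each).

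The island at Lmx1a, the hem determinant, was narrower and more even in tissue. It measured 15, 13.2, 15.6 and 15.2 kb in the 4 hippocampus libraries and 39, 11.4, 17 and 26 kb in the neurosphere libraries. The hippocampus values lay within the span of the neurosphere values. Otx2 had islands of 37.4, 28.8, 37.2 and 43.6 kb in hippocampus, longer than the 16.14 kb gene and covering the start of its opposite-strand long non-coding neighbour Otx2os1. In neurospheres the widest island touching the 4 kb Otx2 promoter window measured 45.8 and 25 kb in the Ctrl libraries and 7.2 kb in both cKO libraries. Further downstream cKO 1 had a longer island of 27.8 kb, more than the length of the gene, that did not reach that window.

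Emx1, the marker of dorsal progenitors, had no H3K27me3 island at its promoter in hippocampus Ctrl 1, Ctrl 2 and cKO 1, and 89.08% coverage in cKO 2. In neurospheres the island covered 100% of it in Ctrl 1, Ctrl 2 and cKO 1 and 39.08% in cKO 2. Lhx9 was covered over 0% and 54.4% in hippocampus Ctrl, over 0% and 100% in hippocampus cKO, and over 100% in all 4 neurosphere libraries. For both genes 1 hippocampus library, cKO 2, reached neurosphere levels, so that the sources overlapped.

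Emx2, the paralogue of Emx1, had no neurosphere H3K27me3 island, and 55% of its promoter was covered in hippocampus cKO 2 alone. Otx1 was at 0 in neurospheres too, and in hippocampus was covered over 0% and 22.6% in Ctrl and 0% and 100% in cKO. Lhx2 had H3K27me3 in 2 libraries, over 100% in hippocampus cKO 2 and over 80% in neurosphere Ctrl 1. Dmrta2 was covered over 13.7% and 58.7% in hippocampus Ctrl, 0% and 100% in hippocampus cKO, and 13.7% in neurosphere cKO 1 only. Hippocampus cKO 2 therefore had H3K27me3 at all 9 promoters, where the other 3 hippocampus libraries had it at 3 to 6. That library also covered the most promoters genome-wide, as given above, and the part of its wider calling in these islands was not tested.

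H2AK119ub1, the Polycomb repressive complex 1 mark, was more uneven across libraries than H3K27me3. Among the hippocampus libraries, Ctrl 2 and cKO 2 had it at all 9 promoters, Ctrl 1 at 5 and cKO 1 at 3. This order followed the islands as a whole, since Ctrl 2 and cKO 2 covered 17.14% and 24.33% of all promoters and Ctrl 1 and cKO 1 6.081% and 3.938%. At Lhx2, for example, promoter coverage was 0% in replicate 1 and 100% in replicate 2 of both genotypes. Lmx1a and Lhx5 alone had the mark in all 4 libraries. For Lmx1a it covered 75.9% and 100% in Ctrl against 45% and 100% in cKO, and for Lhx5 2.55% and 100% in Ctrl against 75% and 100% in cKO. In neurospheres the mark covered 100% of the Lhx5 and Lhx9 promoters in all 4 libraries and at least 95.9% of Lmx1a. Otx1 had it there in Ctrl 1 only.

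H3K36me2 reached member promoters in neurospheres alone. Lhx2 was the only member with it in all 4 of these libraries, over 43% and 53% of the promoter in Ctrl and 53% and 38% in cKO. Dmrta2 had 63.7% and 0% in Ctrl and 83.7% and 0% in cKO. Emx1, Lhx9 and Otx1 had it only in cKO 1, over 89.08%, 39.4% and 12.6% of the promoter, and Lhx5 and Lmx1a had none. Neurosphere cKO 1 was also the library whose H3K36me2 islands touched most promoters genome-wide, 42.17% against 11.28% to 20.04% in the other 3.

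The sources were compared by the difference in mean promoter coverage at each gene, neurospheres minus hippocampus. For H2AK119ub1 the median of this difference over the 9 was 22.61 points (17.34 points over all promoters with an island). For H3K27me3 the member median was -5 points where all promoters with an island stood at 10.69. For H3K36me2 it was 9.85 points over all 9, with Lhx5 and Lmx1a, which had no island, counted as 0. The 13.75 points over all promoters leave out those without an island, so these medians have unlike bases. Among the 7 members with an island the middle difference was 22.27 points, at Emx1. No member promoter passed the adjusted test in any mark, nor did any promoter at all. The smallest adjusted p was 0.7346 for H2AK119ub1, 0.1891 for H3K27me3 and 0.451 for H3K36me2, and at an unadjusted p under 0.05 stood 3.424%, 15.11% and 6.335% of promoters (exact permutation tests, 4 against 4 libraries). For H2AK119ub1 the sources overlapped at all 9 (3.33% of all promoters were higher in neurospheres without overlap), as they did for H3K27me3 (12.4% higher and 2.66% lower). For H3K36me2 only Lhx2 did not overlap, with 0% in 4 hippocampus libraries and 46.75 ± 7.5% in 4 neurosphere libraries (exact permutation p = 0.02857, adjusted p = 0.451), beside 6.26% of all promoters. At equal covered length the Lhx2 difference was 0 points, and at the start of the longest coding transcript 2.763 points.

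Inside the genes, H3K27me3 coverage was lower in neurospheres on average at 5 of the 9 and higher at 4, with a median of -10.53 points where all gene bodies stood at 7.088. The sources separated at Lmx1a and Lhx9 only, both higher in neurospheres. Lmx1a gene-body H3K27me3 was 10.51% and 7.877% in hippocampus Ctrl, 13.9% and 17.28% in hippocampus cKO, 72.67% and 56.11% in neurosphere Ctrl and 67.15% and 67.31% in neurosphere cKO. Every neurosphere library was above every hippocampus library, with means of 12.39 ± 4.086% and 65.81 ± 6.953% (SD, n = 4 each, exact permutation p = 0.02857, adjusted p = 0.1146). In hippocampus the island over the start measured 13.2 to 15.6 kb, and further islands inside this long gene made up the rest of the coverage. In neurospheres the mark extended over most of the transcribed length. H3K36me2 in the Lmx1a body ran the other way, with 10.16% and 5.392% in hippocampus Ctrl, 11.54% and 10.91% in hippocampus cKO, and 1.003% in neurosphere cKO 1 as the sole neurosphere value above 0 (9.498 ± 2.795% against 0.2508 ± 0.5016%, n = 4 each, exact permutation p = 0.02857, adjusted p = 0.1137).

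Lhx9 gene-body H3K27me3 was 0% and 0.7567% in hippocampus Ctrl, 0% and 48.64% in hippocampus cKO, 75.14% and 62.32% in neurosphere Ctrl and 76.85% and 100% in neurosphere cKO. Here too the sources did not overlap (12.35 ± 24.19% against 78.58 ± 15.69%, n = 4 each, exact permutation p = 0.02857, adjusted p = 0.1146). Lmx1a and Lhx9 were 2 of 9 members without overlap, beside 21.7% of 10870 gene bodies with the same direction. A gene body lower in neurospheres for H3K36me2, as Lmx1a was, was found in 0.789% of 14963, whereas 24.3% were higher and no member was among those. Every neurosphere library of H3K27me3 and H3K36me2 held more reads in islands than any hippocampus library of that mark, and the part of depth in these differences was not tested.

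**Figure D2:**
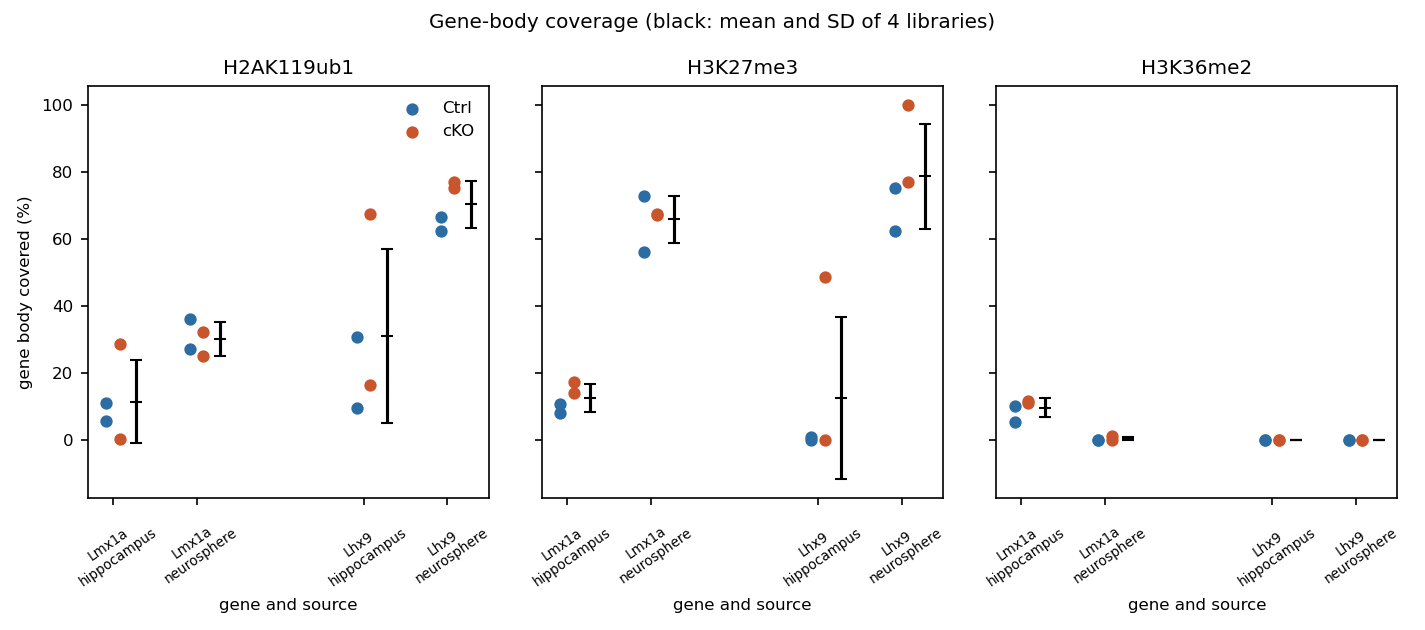
Share of the Lmx1a and Lhx9 gene bodies inside islands of each mark, in percent, by source; points are single libraries (blue Ctrl, orange cKO) and black bars give mean and SD of the 4 libraries of a source. H3K27me3 at Lmx1a lies between 7.877% and 17.28% in hippocampus and between 56.11% and 72.67% in neurospheres, while its H3K36me2 is highest in hippocampus.

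Loss of the CxxC zinc finger was compared next, first for H3K27me3 in neurospheres, where 5 members had an island in all 4 libraries. For the widest island over the promoter, Otx2 and Emx1 had narrower and less dense islands in both cKO libraries and Lhx5 showed a smaller difference in the same direction. At Lmx1a width and density relative to the library mean overlapped. Lhx9 had wider islands in both cKO libraries, denser relative to the library mean but with fewer raw counts per kb. Promoter coverage itself separated the genotypes at none of the 9, beside 13.3% of 8817 promoters lower and 8.54% higher in cKO, and its median difference was 0 points over the members and over all promoters. With 2 against 2 libraries the smallest exact permutation p is 0.3333, so these comparisons rest on the values and on the shares of all genes given beside them.

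At Otx2, counts per kb of the widest island were 159.1 and 157.4 in Ctrl against 67.08 and 36.11 in cKO. Relative to the mean island density of the library these were 2.642 and 3.009 times in Ctrl and 1.553 and 0.8591 times in cKO. Both cKO libraries lay below both Ctrl libraries on either scale. These are not one island throughout, since the 7.2 kb island lay from 1.819 to 9.018 kb past the start in cKO 1 and from -6.181 to 1.018 kb around it in cKO 2. The merged Otx2 region of 46 kb was 1 island in Ctrl 1 and 4 islands in each of Ctrl 2, cKO 1 and cKO 2. Its longest island was 45.8 and 25 kb long in Ctrl against 27.8 and 12.6 kb in cKO, so the genotypes overlapped in that length. The covered length overlapped too, at 45.8 and 41.6 kb in Ctrl against 42.4 and 35.4 kb in cKO, while the gene body was covered over 100% and 95.04% in Ctrl and 90.09% and 72.74% in cKO.

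At Emx1, counts per kb were 98.61 and 126.7 in Ctrl and 46.75 and 38.39 in cKO, or 1.637 and 2.423 against 1.082 and 0.9134 times the library mean. The widest island over the promoter measured 34.6 and 13.8 kb in Ctrl against 11.4 and 5.6 kb in cKO. Gene-body coverage was 100% and 64.39% in Ctrl against 60.87% and 0% in cKO, so all 4 measures were lower in both cKO libraries. The longest island anywhere in the Emx1 region overlapped, with 34.6 and 15 kb in Ctrl against 11.4 and 16.2 kb in cKO. The cKO genome carries Cre at this gene, and the part of that allele in the Emx1 values was not tested.

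Lhx5 had 137.4 and 118.7 counts per kb in Ctrl and 93.33 and 79.96 in cKO, and its densities relative to the library mean were 2.281 and 2.269 against 2.161 and 1.902. The genotypes did not overlap, but the relative difference was small. For Lmx1a the relative densities were 1.656 and 2.733 in Ctrl and 2.232 and 1.373 in cKO and the widths 39 and 11.4 kb against 17 and 26 kb. Neither quantity separated the genotypes at Lmx1a.

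Lhx9 was the member with the opposite direction. Its island was 16.2 kb wide in both Ctrl libraries and 22.8 and 46.8 kb in cKO, and its relative density was 1.945 and 2.009 in Ctrl against 2.327 and 2.433 in cKO. Gene-body coverage was 75.14% and 62.32% in Ctrl against 76.85% and 100% in cKO. All 3 measures were higher in both cKO libraries. Raw counts per kb, which follow depth, were 117.2 and 105.1 in Ctrl and 100.5 and 102.3 in cKO, so the direction at Lhx9 is the reverse on that scale.

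**Figure D3:**
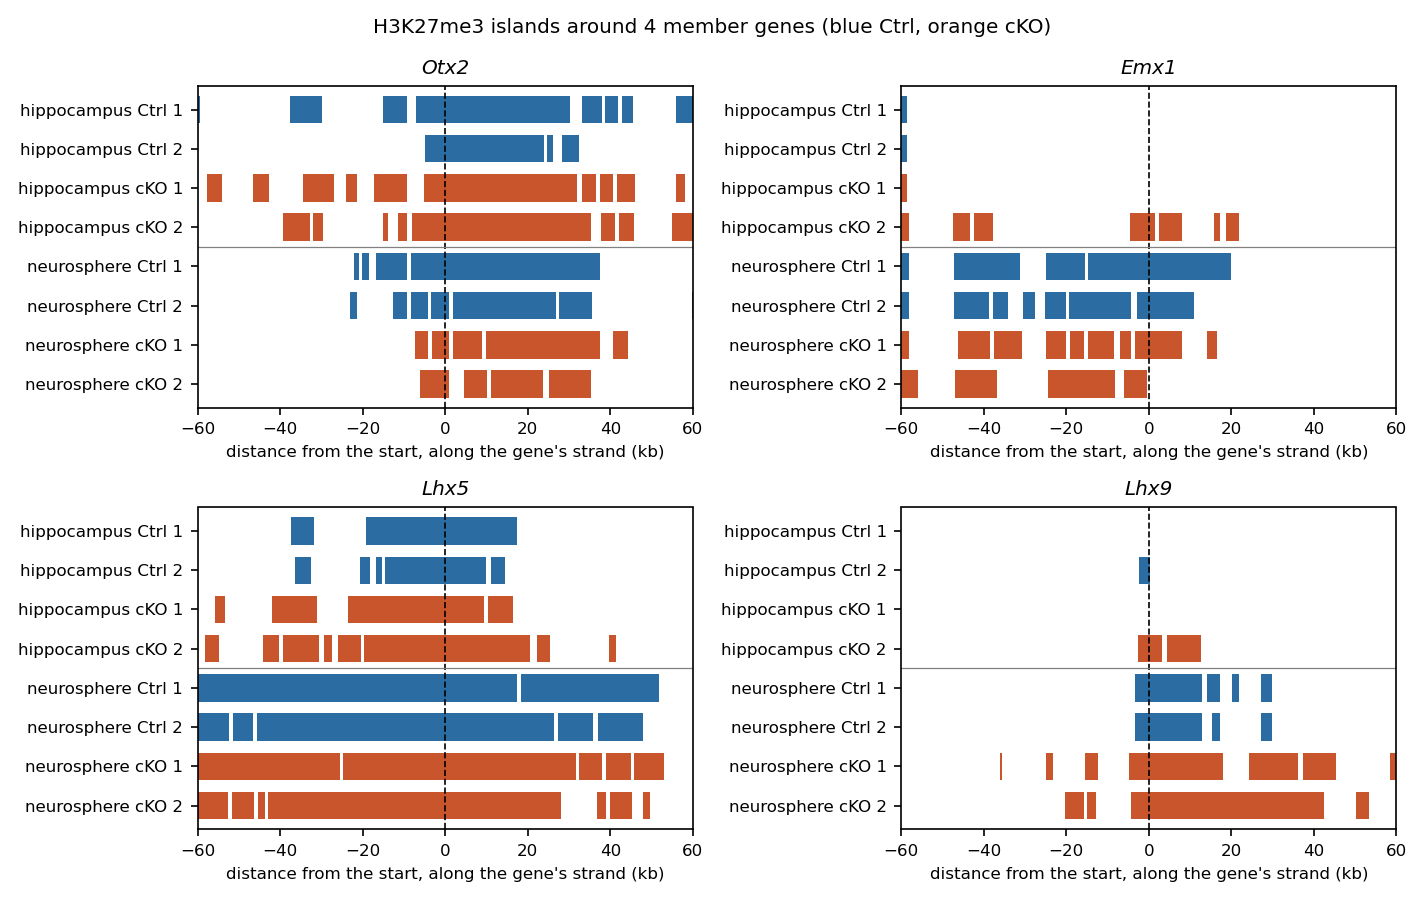
H3K27me3 islands within 60 kb of the start of Otx2, Emx1, Lhx5 and Lhx9 in the 8 libraries, drawn to scale along each gene's strand (x axis: distance from the start in kb; blue Ctrl, orange cKO; dashed line: start). In neurospheres the Otx2 domain is 1 island in Ctrl 1 and 4 islands in Ctrl 2, cKO 1 and cKO 2, the island over the Emx1 promoter is shorter in cKO, and the one over the Lhx9 promoter is longer, 22.8 and 46.8 kb against 16.2 kb.

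**Figure D4:**
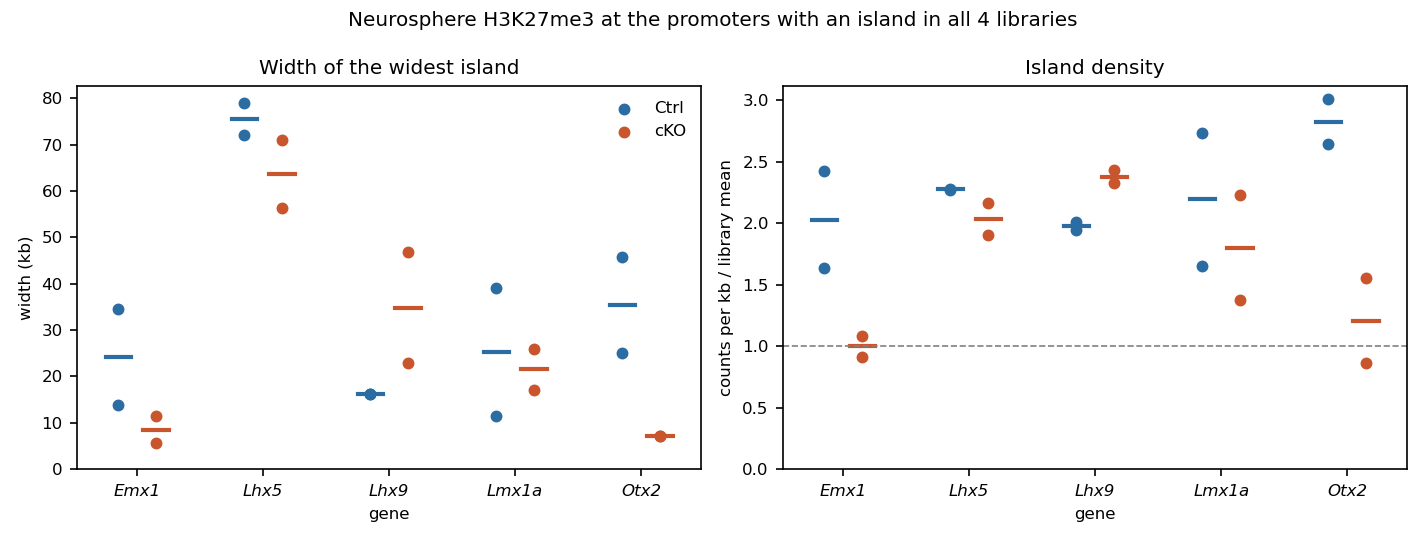
Width in kb of the widest H3K27me3 island over the promoter (left) and its counts per kb divided by the mean of all islands of the library (right) in neurospheres, for the 5 members with an island in all 4 libraries; points are libraries, short lines the mean of 2. Otx2 and Emx1 cKO points lie below both Ctrl points in both panels and Lhx9 cKO points above.

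Across all 3401 promoters with an island in every neurosphere H3K27me3 library, such separations were frequent. Relative density was lower without overlap at 24.9% of them and higher at 22.3% (members: Emx1, Lhx5 and Otx2 lower, Lhx9 higher), and width was lower at 18.3% and higher at 28.8% (the same 3 lower and Lhx9 higher). Raw counts per kb were lower without overlap at 69.4%, and at all 5 members. For gene bodies 13.4% were lower (Emx1 and Otx2 among the members) and 15.1% higher (Lhx9). The median log2 difference of relative density was -0.28 over the 5 members and -0.0027 over all 3401, and that of width was -0.25 and 0.23.

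Island reads were then summed over regions in which the islands of the 4 libraries overlapped or touched, and regions with an island in every library were tested with edgeR's quasi-likelihood test. Islands were called in each library separately and reads outside them were not counted, so these sums move with the covered length as well as with the read density. In the Otx2 region, the islands held 7289 and 5590 reads in Ctrl and 2453 and 1382 in cKO, a log2 difference of -1.72 ± 0.34 (SE). Per covered kb these were 159.1 and 134.4 in Ctrl and 57.85 and 39.04 in cKO, or 2.642 and 2.569 against 1.34 and 0.9286 times the library mean, lower in both cKO libraries where the covered length overlapped. In the Emx1 region of 45 kb, 4054 and 2745 reads over 44 and 33.8 kb of islands in Ctrl stood against 1346 and 777 over 31.2 and 21.8 kb in cKO (log2 difference -1.64 ± 0.34). Both parts were lower at Emx1, with 92.14 and 81.21 counts per covered kb in Ctrl and 43.14 and 35.64 in cKO. In the Lhx9 region of 50.2 kb, 2282 and 1942 reads over 23.8 and 20.8 kb in Ctrl stood against 3073 and 4787 over 42.8 and 46.8 kb in cKO (log2 difference 0.88 ± 0.24). Counts per covered kb at Lhx9 were 95.88 and 93.37 in Ctrl and 71.8 and 102.3 in cKO, which overlapped, so there the covered length separated the genotypes and the density did not. Lhx5 and Lmx1a had log2 differences of -0.64 ± 0.18 and -0.45 ± 0.19.

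None of these 5 passed edgeR's test after Benjamini-Hochberg adjustment over 11262 regions, where 0% were called. The adjusted p was 0.175 for Otx2 and Emx1, 0.200 for Lhx9, 0.214 for Lhx5 and 0.289 for Lmx1a. At an unadjusted p under 0.05 stood 2077 regions (18.4%), among them Otx2, Emx1, Lhx9 and Lhx5 but not Lmx1a. The DESeq2 Wald test called 738 regions, among them Otx2 (adjusted p = 0.00189) and Emx1 (adjusted p = 0.0036). Without cKO 1, edgeR called 2409 regions and all 5 members with adjusted p-values from 0.00476 to 0.0226, and without cKO 2 it called 96, with Otx2 at an adjusted p of 0.0343 and Emx1 at 0.0496. Without Ctrl 1 or Ctrl 2 edgeR called 0 regions, with 1146 and 929 at an unadjusted p under 0.05, and the adjusted p was 0.399 and 0.494 for Otx2 and 0.411 and 0.518 for Emx1. Lhx9 was the only one of the 5 with more reads in cKO in each of these fits, and the other 4 had fewer.

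**Figure D5:**
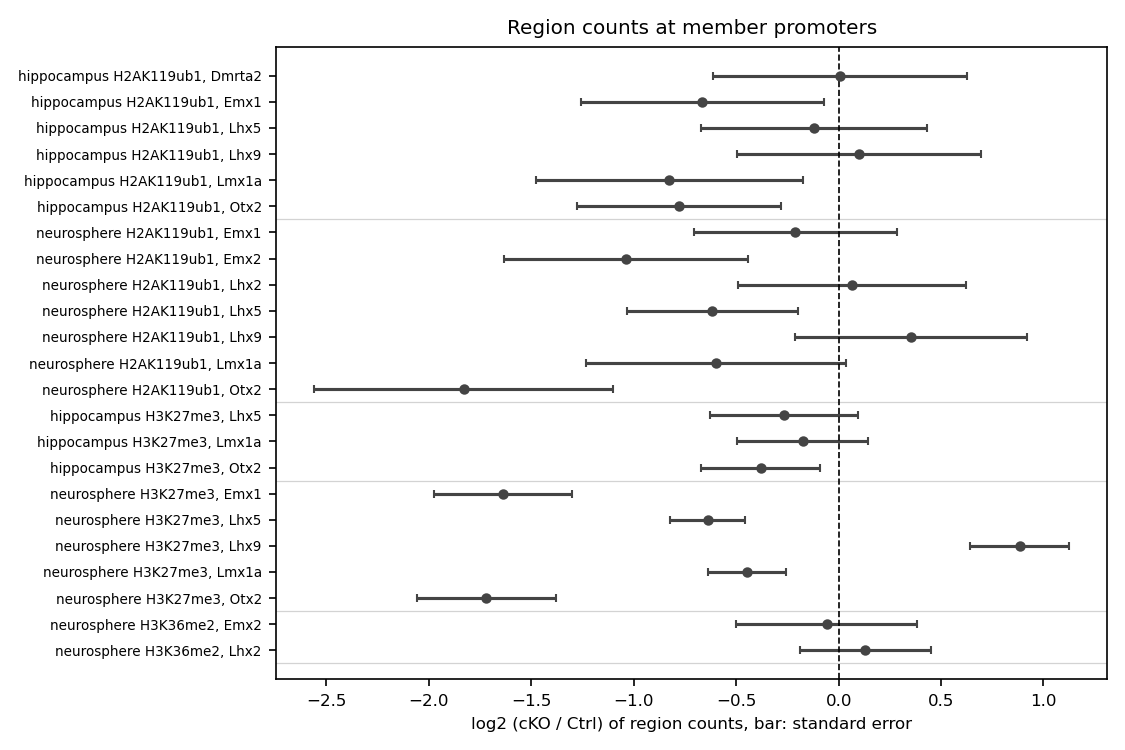
Log2 difference of region counts, summed over the islands called in each library (cKO over Ctrl), with its standard error from edgeR, for each member region with an island in all 4 libraries of a mark and source. Neurosphere H3K27me3 lies at -1.72 for Otx2, -1.64 for Emx1 and 0.88 for Lhx9. Neurosphere H2AK119ub1 lies at -1.83 for Otx2 and -1.04 for Emx2, with longer bars. Of the other bars, some cross 0 and some do not.

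Otx2 was also lower in neurosphere H2AK119ub1. Its island density relative to the library mean was 2.26 and 1.53 in Ctrl against 0.9894 and 0.8959 in cKO, and its gene body was covered over 93.81% and 100% in Ctrl and 82.66% and 29.85% in cKO. Both cKO libraries lay below both Ctrl libraries in each. In the Otx2 region of 32.4 kb, islands covered 28.8 and 32.4 kb in Ctrl against 17.6 and 8 kb in cKO and held 2551 and 1967 reads against 590 and 286 (log2 difference -1.83 ± 0.73, edgeR adjusted p = 1.00). Counts per covered kb were 88.58 and 60.71 in Ctrl and 33.52 and 35.75 in cKO, so both the called length and the density were lower in cKO. At an unadjusted p under 0.05 edgeR had 101 of 6060 regions (1.67%), Otx2 among them, 0% passed the adjusted test, and the DESeq2 Wald test called 32, with Otx2 at an adjusted p of 0.282. Without Ctrl 1, which was the deepest of these libraries, edgeR called 671 regions and Otx2 had an adjusted p of 0.00158. The other 3 leave-outs gave Otx2 an edgeR adjusted p of 0.861 without Ctrl 2, 1.00 without cKO 1 and 1.00 without cKO 2, with 1, 0 and 1 regions called (28 at an unadjusted p under 0.05 without cKO 1).

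Promoter coverage by H2AK119ub1 in neurospheres was lower without overlap at Emx2 and Lhx2. Emx2 was covered over 100% and 35% in Ctrl and 0% and 24.27% in cKO, and Lhx2 over 98% and 100% in Ctrl and 50% and 65% in cKO. These were 2 of 9 members, beside 7.79% of 10570 promoters, with no member among the 4.42% that were higher. The exact permutation p of each was 0.3333, the smallest 2 against 2 libraries allow. Within 5 kb of the start the Lhx2 difference was 10 points with the sign reversed, and the Lhx2 region as a whole had a log2 difference of 0.07 ± 0.56. For the Emx2 region it was -1.04 ± 0.60 (edgeR adjusted p = 1.00). Over the 9 members the median difference in promoter coverage was -12.5 points, against -1.306 over all promoters with an island.

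Relative to the library mean, the H2AK119ub1 island was less dense without overlap in cKO at Emx1, Lhx2, Lhx5, Lmx1a and Otx2, 5 of the 6 members with an island in all 4 libraries, where 30.7% of 1474 promoters were. The exception was Lhx9, with 1.271 and 1.099 in Ctrl and 1.229 and 1.468 in cKO. Lhx9 was wider in cKO, 20.8 and 23.2 kb against 16.2 and 12.2 kb, as was Lmx1a with 14 and 10.4 kb against 9.2 and 10.2 kb (3.26% of promoters). Of gene bodies, 8.07% were higher without overlap, including Lhx9 with 75.21% and 76.85% against 62.32% and 66.59%, and 7.09% were lower, including Otx2. Islands of both Polycomb marks thus covered more of the Lhx9 body in each cKO library than in either Ctrl library, and less of the Otx2 body.

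H3K36me2 at the Otx2 promoter was 0% in both neurosphere Ctrl libraries and 65% and 55.45% in cKO. The islands were short, 2.6 and 3.2 kb, and had 65.38 and 29.06 counts per kb. Otx2 was the 1 member higher without overlap (4.23% of 10780 promoters were), and Emx2 was the 1 member lower (5.61%), with 10.72% and 5.725% in Ctrl and 0.725% and 0% in cKO (exact permutation p = 0.3333 for each). At the start of the longest coding transcript, Otx2 had no H3K36me2 difference (0 points). In gene bodies H3K36me2 was higher without overlap at Emx1 and Otx2 (6.95% of 14596), Emx1 having 20.33% and 0% in Ctrl and 81.2% and 21.15% in cKO. The edgeR fit covered the Lhx2 and Emx2 regions (log2 differences 0.13 ± 0.32 and -0.06 ± 0.44) and called 0% of 34454 regions, with 736 at an unadjusted p under 0.05 and 83 by the DESeq2 Wald test.

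In hippocampus tissue no member separated the genotypes in promoter coverage. For H3K27me3, where 2.58% of 6736 promoters were lower and 11.8% higher without overlap, the member median was 22.8 points against 7.5 over all promoters, and all 6 members with a difference were higher in cKO through cKO 2. For H2AK119ub1, where 1.7% of 6246 were lower and 2.03% higher, the medians were 10 and 5.525 points. In the H3K27me3 fit, islands of the Otx2 region held 2527 and 1744 reads over 48.2 and 34.6 kb in Ctrl and 2646 and 3102 over 48 and 50.8 kb in cKO, which is a log2 difference of -0.38 ± 0.29 after scaling for depth. The Lhx5 and Lmx1a regions had log2 differences of -0.27 ± 0.36 and -0.17 ± 0.32, and all 3 had an adjusted p of 0.994 in edgeR. Raw counts per kb of the widest island ran the other way at Lmx1a, with 49.07 and 41.36 in Ctrl and 56.54 and 69.67 in cKO, and at Otx2, with 59.49 and 56.08 against 59.65 and 67.84, as they did at 77.9% of 1832 promoters. The Lmx1a island was also slightly wider in cKO, 15.6 and 15.2 kb against 15 and 13.2 kb (26.7% of promoters), and its gene body more covered, 13.9% and 17.28% against 10.51% and 7.877% (18.9% of 7826 gene bodies). Relative to the library mean the densities of both genes overlapped, at 1.426 and 1.351 in Ctrl and 1.306 and 2.017 in cKO for Lmx1a. The H2AK119ub1 regions of 6 members ranged from -0.83 ± 0.65 at Lmx1a to 0.10 ± 0.60 at Lhx9 (edgeR adjusted p = 0.999 for all). By edgeR 0% of 2750 H2AK119ub1, 4387 H3K27me3 and 6447 H3K36me2 regions were called, with 30, 155 and 318 at an unadjusted p under 0.05 and 0, 3 and 20 by the DESeq2 Wald test.

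When genotypes were compared over both sources at once, with labels permuted within each source, no member reached the smallest possible p of 0.05556. The lowest values were those of Emx2 and Otx2 for H3K36me2 (exact permutation p = 0.3333 each, 4 Ctrl against 4 cKO libraries, 36 splits). For that mark every member promoter was at 0 in hippocampus, so no lower p was possible and the hippocampus libraries added nothing to the neurosphere comparison. Nor could the test separate the genotypes for H3K27me3 at Lhx5 and Lmx1a, which were at 100% in every library.

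Related genes were read the same way. Of 14 paralogues of the members, 11 or 12 had H3K27me3 at the promoter in every library, and Crx, the photoreceptor paralogue of Otx2, was the 1 lower without overlap in neurosphere cKO (100% and 55.83% in Ctrl, 0% and 0.825% in cKO). Of 14 other regulators of dorsal telencephalic progenitors, from 5 to 11 had H3K27me3, and those lower without overlap in neurosphere cKO included Gli3 and Neurog2. Gli3, the repressor that shields the dorsal telencephalon from ventral signals, was covered over 100% in both Ctrl and over 80% and 39.15% in cKO for H3K27me3, and over 80.85% and 90.85% in Ctrl and 0% in both cKO for H2AK119ub1. Of 12 hem signals and their effectors, such as Wnt3a, Bmp4 and Msx1, from 10 to 12 had H3K27me3 in each library and none separated the genotypes for that mark in neurospheres, while Msx2 was lower without overlap there for H2AK119ub1 (100% in both Ctrl, 40% and 78.17% in cKO). The member median of 0 points for neurosphere H3K27me3 was shared by all 3 lists.

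Over the 24 libraries, the gene whose promoter coverage was nearest to the mean profile of the 9 was Bahd1, a chromatin silencing factor, at a Euclidean distance of 81.68 percentage points. It was followed by Wnk4 (84.26), Sgcb (87.79), Edn1 (90.89) and Tbr1 (92.56), a transcription factor of early cortical neurons, while the median distance of all genes was 247.5. The profiles averaged 62.86% for H2AK119ub1, 53.63% for H3K27me3 and 8.515% for H3K36me2 over the 9 members, and 54.6%, 68.1% and 7.575% at Bahd1.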

How the data were processed

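ChIP-seq islands of 3 histone marks in 24 libraries were analysed, 2 libraries for each mark, source and genotype. A further 12 input libraries carried no islands and were not used here. According to the study's methods and the submitters' processing notes, the authors trimmed adaptors with cutadapt, aligned reads to mm10 with Bowtie2 2.4.5, removed duplicates, and called islands in each library against its input with SICER in windows of 200 bp. The deposited files list each island with its read counts, whole numbers that are not normalized for depth. Such lists hold called islands only, so a coverage of 0% means that no island was called.

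Gene starts, ends and exons came from the GENCODE annotation of mm10 (VM21). Coverage, widths and densities were computed in Python 3.11.15 with numpy 2.4.6 and tested with two-sided exact permutation tests over libraries, Benjamini-Hochberg adjusted over all promoters or gene bodies with an island in at least 1 library compared. Genotypes of 2 libraries each were described by whether they overlapped, beside the share of all such promoters that did not. Region counts were fitted with edgeR 4.0.16 (quasi-likelihood test, TMM scaling) in R 4.3.3, with DESeq2 1.42.0 as an alternative, and called at an adjusted p under 0.05. Both were tested on simulated data. The 9 genes, the related lists and the tests were chosen with earlier results of these data known. All 9 members are named, with the 3 genes of each related list that differ most where a value is given, the 5 nearest profiles, and Neurog2, which was named after its values were seen. Counting error and the spread between 2 libraries limit the precision. Islands on the mitochondrial genome (9 in all) were left out.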

Additional observations from a re-analysis of the deposited data

How the results depend on the processing

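The direction of every edgeR difference named for neurosphere H3K27me3 was the same in all alternatives run, and Lhx5, Lmx1a and Otx2 kept their higher H3K27me3 than H3K36me2 coverage in all planned ones. With libraries paired across these marks, an alternative chosen after seeing the data, 0 members were called instead of 4. Other counts moved. The number of members without overlap between genotypes was 2 instead of 0 for hippocampus H2AK119ub1 at equal covered length, 1 instead of 2 for neurosphere H2AK119ub1 within 1 kb of the start, 2 instead of 0 for neurosphere H3K27me3 within 5 kb, and 1 instead of 2 for neurosphere H3K36me2 within 1 kb, at the start of the longest coding transcript and at equal covered length. Between sources it was 1 instead of 0 for H2AK119ub1 within 5 kb, 1 instead of 0 for H3K27me3 within 5 kb and at the longest coding transcript, and for H3K36me2 2 instead of 1 within 5 kb and 0 at the longest coding transcript and at equal covered length. Lhx2 reversed for neurosphere H2AK119ub1 within 5 kb, with 10 points where the main value was -41.5. Summing all islands over a promoter gave a median log2 width difference of 0.22 over members for neurosphere H2AK119ub1, against -0.30. The cause of these shifts was not tested.

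Between genotypes, leaving out 1 library leaves 1 against 2, where groups overlap less often by construction. The share of all promoters without overlap was not counted in these settings either, so the member counts cannot be set against it. Members without overlap between genotypes then ranged from 0 to 4 (hippocampus H2AK119ub1), 2 to 5 (neurosphere H2AK119ub1), 0 to 6 (hippocampus H3K27me3), 0 to 2 (neurosphere H3K27me3) and 2 to 6 (neurosphere H3K36me2), and between sources from 0 to 1, 0 to 2 and 1 to 2 for H2AK119ub1, H3K27me3 and H3K36me2. Median log2 width differences ranged from -1.77 to 2.24 (hippocampus H2AK119ub1), -1.05 to 0.13 (neurosphere H2AK119ub1) and 0 to 0.51 (neurosphere H3K36me2), and those of counts per kb from 0.057 to 0.44 (hippocampus H3K27me3), -1.07 to -0.46 (neurosphere H3K27me3) and -0.62 to -0.038 (neurosphere H3K36me2). Regions called by edgeR, 0 with all libraries, ranged from 0 to 23 (hippocampus H3K27me3), 0 to 671 (neurosphere H2AK119ub1), 0 to 2409 (neurosphere H3K27me3) and 0 to 2039 (neurosphere H3K36me2), the lone library being assumed to vary like the others.

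The DESeq2 Wald test called 3 and 20 regions for hippocampus H3K27me3 and H3K36me2 and 32, 738 and 83 for neurosphere H2AK119ub1, H3K27me3 and H3K36me2, where edgeR called 0. Replicate numbers were shared by the genotypes, but with 2 pairs they are only numbers. With the replicate block edgeR called 9 regions for hippocampus H3K27me3, none at a member, and 0 in the other 5 comparisons. Deviations of same-numbered libraries correlated at 0.33 (H2AK119ub1), 0.27 (H3K27me3) and 0.016 (H3K36me2) in hippocampus, and at -0.32, -0.12 and 0.31 for the neurosphere marks in that order. A crossed pairing for the 2 negative ones, chosen after seeing the data, called 0 regions in both.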
